A study of Bos taurus with 6 samples.

Results

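The GIMAP genes (GTPases of immunity-associated proteins) were followed in bulk RNA of sorted cow (Bos taurus) endometrial cells, the side population (SP) and the main population (MP), all from the luteal phase. Members were all listed rows whose symbol is GIMAP followed by a number, 8 of 34733 named rows. They carry 5 symbols: GIMAP4, GIMAP5, GIMAP6, GIMAP8 and, on 4 rows, GIMAP7, which are told apart here as GIMAP7, GIMAP7-2, GIMAP7-3 and GIMAP7-4, as the files name them. The cells came from slaughterhouse uteri. Intercaruncular endometrium freed of luminal epithelium was digested with collagenase, and cells that excluded propidium iodide were sorted by Hoechst staining, a DNA dye that SP cells pump out and MP cells keep; verapamil, which blocks that pump, served in parallel stainings. SP and MP have 3 libraries each. The labels name no antibody in the sort. Nor do they say that replicates came from different cows, and the p-values therefore reflect variation among these libraries alone, part of which may be technical.

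GIMAP proteins are GTP-binding proteins, related in their G domain to septins, that sit mostly on membranes of the endoplasmic reticulum, Golgi, lysosomes and lipid droplets. They are best known in lymphocytes, where loss of GIMAP5 in rats and mice shortens the life of T cells, and several have also been found in endothelial cells of mouse and human tissue. The genes lie side by side in mammals. In the build ARS-UCD1.2 the listed loci of the 8 rows run along chromosome 4 from 112848470 to 113338745, introns and spacers included.

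The 7 rows other than GIMAP8 were low in both populations, and none of the 8 rows had the higher median in SP. GIMAP8 lay near the middle of the rows above 0, at the 44.8th to 47.7th percentile in SP libraries and the 46.4th to 58.8th in MP libraries. All values are FPKM, fragments per kilobase of transcript scaled to the mapped fragments of the library, as deposited. Summed over the 8 rows, the level was 2.69, 2.58 and 3.16 FPKM in SP replicates 1 to 3, against 6.87, 8.83 and 5.36 FPKM in MP replicates 1 to 3. The groups did not overlap in this sum. GIMAP8 alone made up 86.9%, 98.9% and 75.1% of it in SP, against 70.8%, 32.8% and 51.8% in MP. The other 7 rows together reached 0.354, 0.0294 and 0.787 FPKM in SP, against 2.01, 5.94 and 2.58 FPKM in MP. An exact 0 in these files can be a failed estimate, so such values are given as listed at 0. Bulk RNA cannot tell fewer cells of a type from less RNA per cell.

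**Figure D1:**
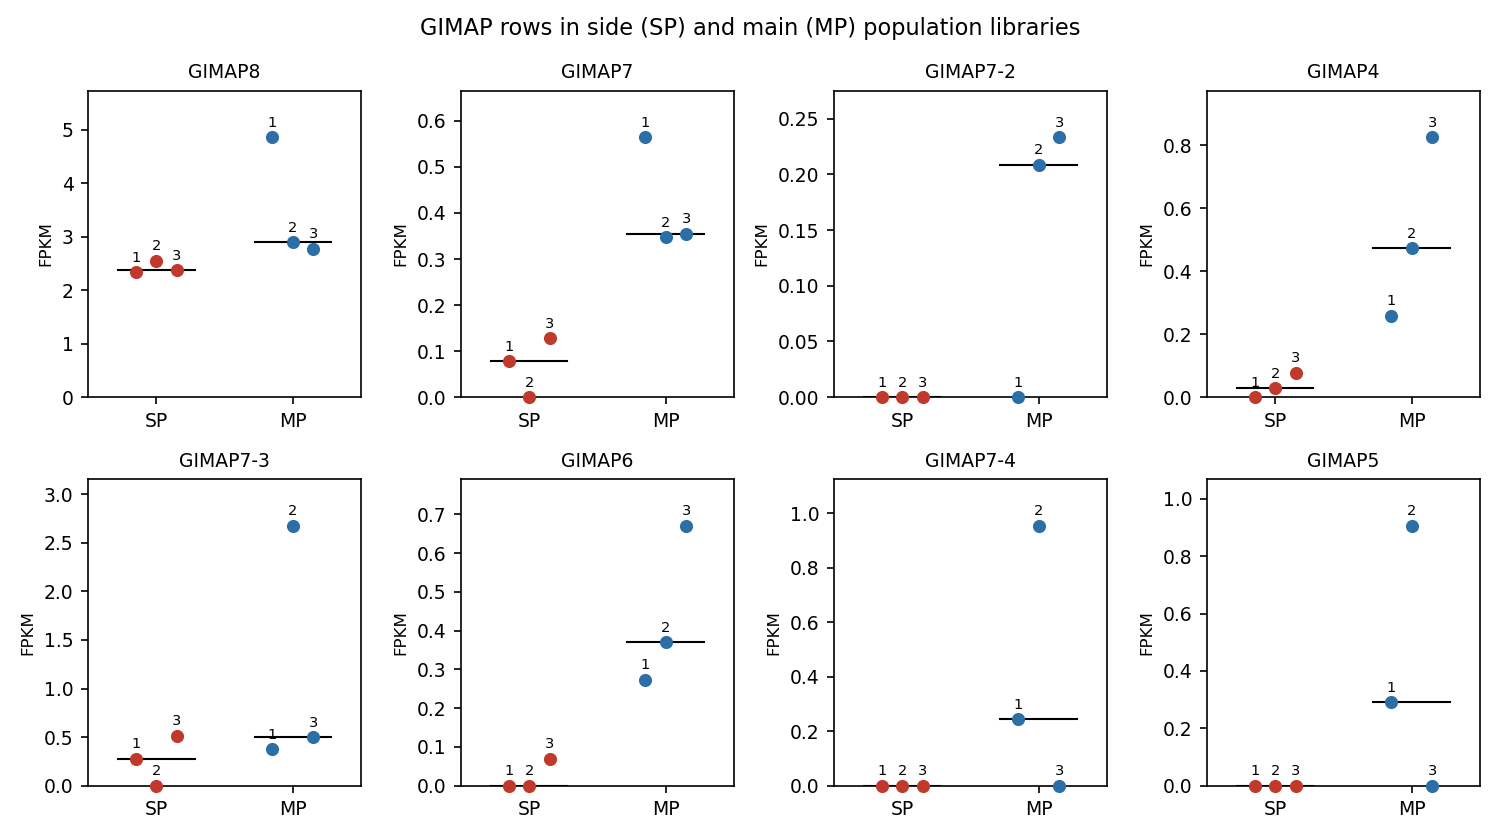
FPKM of each of the 8 GIMAP rows in the 3 SP and 3 MP libraries (points, numbered by replicate; lines are medians; each panel has its own linear axis starting at 0). GIMAP8 sits between 2.34 and 4.86 FPKM in all 6 libraries, while GIMAP4, GIMAP6 and GIMAP7 are under 1 FPKM throughout and higher in every MP library.

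GIMAP8 is the largest member of the family, with several G domains in tandem in human and mouse, where it is expressed in lymphocytes. Its listed locus runs from 112848470 to 112875591 on chromosome 4. It had 2.34, 2.55 and 2.38 FPKM in SP replicates 1 to 3, against 4.86, 2.89 and 2.77 FPKM in MP replicates 1 to 3. The SP values lay close together and all below the MP values, of which that of replicate 1 stood above the other 2. The mean of GIMAP8 was 2.42 ± 0.115 FPKM over the SP libraries, against 3.51 ± 1.17 FPKM over the MP libraries (SD, n = 3 each). To be tested, a gene had to reach 1 FPKM in 3 or more libraries, and no other member did. On the log2(FPKM + 1) scale, which understates changes of low genes, its fold change of SP over MP was −0.37 ± 0.24 (SE), with a 95% interval from −0.94 to 0.20 (limma, Benjamini-Hochberg adjusted p = 0.256). Permuting the 6 libraries exactly gave a two-sided p = 0.1, the smallest that 3 against 3 allows. GIMAP8 therefore did not pass, also at its unadjusted limma p of 0.171, while 39.2% of the 12127 tested genes were called, 20.5% higher and 18.7% lower in SP. Without MP replicate 1 the fold change was −0.16 (limma adjusted p = 0.581).

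GIMAP4, GIMAP6 and GIMAP7 were near 0 in SP and low in MP. GIMAP4 (113066862 to 113090567), which in mouse T cells takes part in the late steps of cell death, was listed at 0 in SP replicate 1 and had 0.0294 and 0.0773 FPKM in replicates 2 and 3, against 0.259, 0.473 and 0.826 FPKM in MP replicates 1 to 3. GIMAP6 (113262108 to 113268375), which binds the autophagy protein GABARAPL2 in human and mouse cells, was listed at 0 in SP replicates 1 and 2 and had 0.0697 FPKM in replicate 3, against 0.273, 0.369 and 0.670 FPKM in MP. GIMAP7 (112898127 to 112907032), which in human can pair with other members and speed up their GTP hydrolysis, was listed at 0 in SP replicate 2 and had 0.0780 and 0.128 FPKM in replicates 1 and 3, against 0.564, 0.347 and 0.355 FPKM in MP. In each of the 3 genes every SP value, as listed, lay below every MP value. With GIMAP8 this held for 4 of the 8 rows, and for 20.5% of the 20810 rows with a value above 0 in at least 1 library. Of the 6 GIMAP rows that stayed under 1 FPKM in every library it held for these 3 genes. Among all 6920 rows above 0 in at least 1 library that stayed under 1 FPKM in every library it held for 8.06%. Both sets include rows listed at 0 in an MP library, in which this order cannot occur. The reverse order, all SP above all MP, held for none of the 8 rows and for 19.9% of the 20810.

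These 3 genes were below the level needed for the test. With no filter on low values they were called lower in SP, with log2 differences on the log2(FPKM + 1) scale of −0.54 ± 0.14 for GIMAP4, −0.48 ± 0.11 for GIMAP6 and −0.41 ± 0.09 for GIMAP7 (SE; limma adjusted p = 0.0445, 0.0324 and 0.0268). In that fit 18.8% of all 20810 rows were called, 8.82% higher and 9.95% lower in SP. With a pseudocount of 0.1 the same 3 genes were called lower and none higher, against 20.4% of the rows called, 9.56% higher and 10.8% lower. On the log2(FPKM + 1) scale with no filter, none of the 8 rows was called without SP replicate 1, 2 or 3. The same held without MP replicate 2. The differences in those 4 fits ran from −0.57 to −0.51 for GIMAP4, from −0.51 to −0.47 for GIMAP6 and from −0.45 to −0.36 for GIMAP7. With the replicate number as a block GIMAP6 alone was called. The exact two-sided permutation test gave p = 0.1 for each of the 3 genes, again the smallest it allows.

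The low values show how few fragments stood behind these genes. The ratio of low values between libraries, which moves in steps of 1 fragment, put the depth of SP replicates 2 and 3 at 1.60 and 1.82 times that of SP replicate 1, and of MP replicates 1 to 3 at 2.32, 3.18 and 1.99 times. If the lowest value of GIMAP4 above 0 rests on 1 fragment, its values in SP replicates 2 and 3 correspond to 1 and 3.00 fragments, against 12.8, 32.0 and 35.0 in MP replicates 1 to 3. For GIMAP7 the same reading gives 1 and 2.99 fragments in SP replicates 1 and 3, against 16.8, 14.2 and 9.08 in MP. GIMAP6 gives 1 in SP replicate 3, against 5.00, 9.25 and 10.5 in MP. A value listed at 0 allows up to 3 fragments. On the same reading the limit for GIMAP6 was 0.381 FPKM in SP replicate 1, above its values in MP replicates 1 and 2. In SP replicate 2 it was 0.238 FPKM, below every MP value. The limits of 0.141 FPKM for GIMAP4 in SP replicate 1 and 0.146 FPKM for GIMAP7 in SP replicate 2 lay below their MP values. The summed depth of the MP libraries was 1.70 times that of the SP libraries. How far depth accounts for the few SP fragments of these 3 genes was not tested. These numbers are estimates and cover counting only.

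GIMAP7-3 (113112101 to 113120508) was the only other row to reach 1 FPKM anywhere. It had 0.275 and 0.513 FPKM in SP replicates 1 and 3 and was listed at 0 in replicate 2, against 0.377, 2.68 and 0.497 FPKM in MP. The groups overlapped, and only MP replicate 2 stood clear of the rest. With no filter it did not pass (limma adjusted p = 0.295).

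GIMAP5, GIMAP7-2 and GIMAP7-4 were listed at 0 in all 3 SP libraries and in 1 MP library each. GIMAP5 (113328115 to 113338745), the survival factor of rodent T cells, had 0.290 and 0.907 FPKM in MP replicates 1 and 2 and was listed at 0 in replicate 3. GIMAP7-4 (113276387 to 113317516) had 0.244 and 0.954 FPKM in the same libraries and was also listed at 0 in MP replicate 3. GIMAP7-2 (112956771 to 112995894) was listed at 0 in MP replicate 1 and had 0.209 and 0.233 FPKM in MP replicates 2 and 3. A 0 allows up to 3 fragments. The lowest value above 0 of each gene was taken as 1 fragment, which is an assumption. Limits would be lower if that value held more than 1 fragment, and higher if it held only part of 1. In MP replicate 2 the assumption gives 4.28 fragments of GIMAP5, 5.35 of GIMAP7-4 and 1.43 of GIMAP7-2. These are not whole numbers, so the assumption is uncertain for these rows. On this reading the limits for GIMAP5 were 2.02, 1.27 and 1.11 FPKM in SP replicates 1 to 3, above every MP value. For GIMAP7-2 the limits were 1.40, 0.873 and 0.765 FPKM, also above every MP value. For GIMAP7-4 they were 1.70, 1.07 and 0.934 FPKM, of which that of replicate 3 lay below the 0.954 FPKM of MP replicate 2. None of the 3 rows passed with no filter (limma adjusted p = 0.219 for GIMAP5, 0.161 for GIMAP7-2 and 0.244 for GIMAP7-4). GIMAP7-2 was called lower in SP there without MP replicate 1, the MP library listed at 0 (limma adjusted p = 0.0210).

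In MP the order of levels began with GIMAP8, whose lowest value (2.77 FPKM) exceeded the highest of any other row (2.68 FPKM, GIMAP7-3 in replicate 2). The median over the MP libraries was 0.497 FPKM for GIMAP7-3, 0.473 for GIMAP4, 0.369 for GIMAP6, 0.355 for GIMAP7, 0.290 for GIMAP5, 0.244 for GIMAP7-4 and 0.209 for GIMAP7-2. Any 2 neighbours among these 7 overlapped across libraries. The rows did not peak in the same MP library: GIMAP8 and GIMAP7 were highest in replicate 1, GIMAP5, GIMAP7-3 and GIMAP7-4 in replicate 2, and GIMAP4, GIMAP6 and GIMAP7-2 in replicate 3. The 4 GIMAP7 rows share a symbol, and their sequences were not compared here, so how fragments were split among them is uncertain. GIMAP4 and GIMAP7-4 share their listed bounds with another row each. The partner of GIMAP4, LOC100337142, was listed at 0 everywhere. That of GIMAP7-4, LOC615733, is named GIMAP1 in the RefSeq gene table of ARS-UCD2.0, has no GIMAP symbol in the files and was chosen for mention after its values were seen. It was listed at 0 in all SP libraries and in MP replicate 1, and had 0.111 FPKM in MP replicate 2 and just over 1 FPKM in MP replicate 3.

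The family was next set beside markers of the cells that are known to express it. Endothelial cells line blood vessels, and their markers stood high in SP. Of 22 listed and tested, 21 rose, none fell and CLDN5 did not pass. Their median log2 fold change was 2.29, against 0.01 over all tested genes. The counts of this and the following lists stand beside 20.5% called higher and 18.7% lower among all 12127 tested genes. KDR, the main VEGF receptor, had 294, 273 and 197 FPKM in SP, against 10.2, 30.9 and 95.8 FPKM in MP. EMCN (endomucin) had 637, 382 and 387 FPKM in SP, against 44.5, 63.2 and 194 FPKM in MP, and PLVAP and ECSCR likewise had every SP value above every MP value. Without SP replicate 1, 7 endothelial markers were called, without SP replicate 2 it was 13 and without MP replicate 2 it was 8; with no filter on low values 11 were called.

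No GIMAP row had a higher median in SP. As a median over the endothelial list, the level was 157, 98.5 and 103 FPKM across SP replicates 1 to 3, against 7.49, 18.2 and 63.2 FPKM in MP replicates 1 to 3. Per 100 FPKM of this median there were 1.48, 2.59 and 2.31 FPKM of GIMAP8 in SP, against 64.9, 15.9 and 4.39 FPKM in MP. As log2((GIMAP8 + 1)/(median marker + 1)) this was −5.11 ± 0.41 in SP and −2.31 ± 1.78 in MP (SD, n = 3 each), a difference of −2.80, and for the sum of the 8 rows it was −3.48. Most of both differences is that of the markers, whose median stands in both ratios. GIMAP8 itself differed by −0.37.

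**Figure D2:**
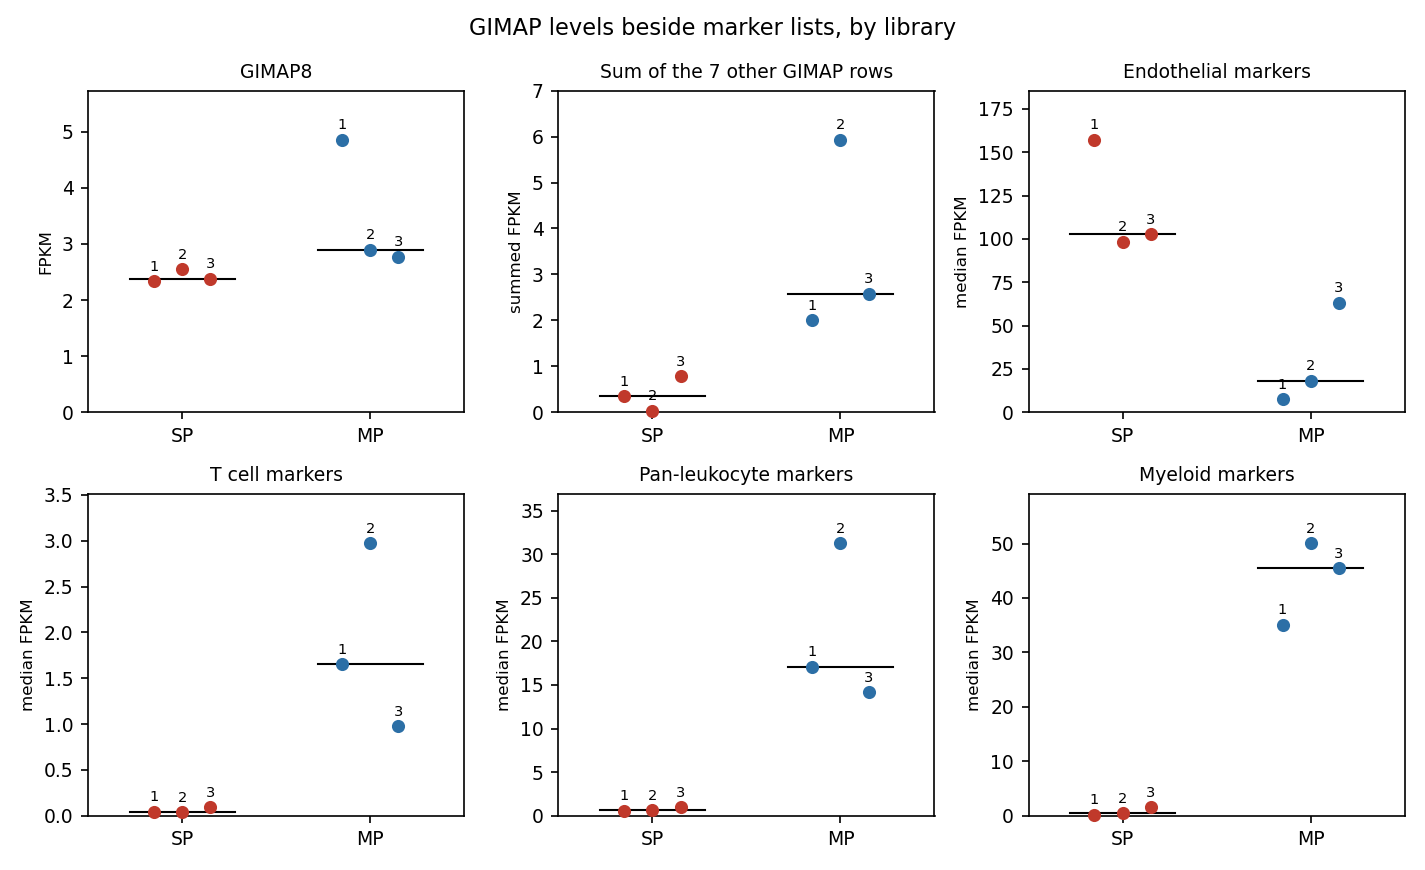
GIMAP8, the sum of the 7 other GIMAP rows and the medians of 4 marker lists in each library, in FPKM on linear axes from 0 (points numbered by replicate; lines are medians). The endothelial median is higher in every SP library, whereas both GIMAP panels and the T cell, pan-leukocyte and myeloid medians are higher in every MP library.

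Of 18 T cell markers 8 were tested; 7 fell and TCF7, a transcription factor also made outside T cells, rose. The median log2 fold change was −1.97. In 5 of the 8 all SP values were under 1 FPKM, so passing the filter fixed their direction. With no filter 13 T cell markers were called lower, and with a mean of at least 5 FPKM 1 was. CD3E, a chain of the T cell receptor complex, had 0.0682, 0.0425 and 0.261 FPKM in SP, against 8.78, 19.5 and 10.7 FPKM in MP (log2 fold change −3.57 ± 0.31 SE, limma adjusted p = 0.000725). CD3D was listed at 0 in SP replicate 1 and had 0.216 and 0.190 FPKM in replicates 2 and 3, against 2.52, 9.52 and 1.94 FPKM in MP, and LAT, an adaptor of the receptor, fell as well. CD8B was listed at 0 in all SP libraries, against 2.99, 2.87 and 4.93 FPKM in MP, and THEMIS was listed at 0 in all 6 libraries; both were picked out after their values were seen. The summed level of the 18 markers was 22.1, 17.8 and 23.4 FPKM in SP, of which TCF7 made up 19.8, 15.2 and 20.0 FPKM, against 39.1, 71.4 and 42.7 FPKM in MP.

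The counts of the other lists include genes under 1 FPKM in every SP library, whose direction passing the filter fixed. Of 8 NK cell markers found, 3 were tested and all 3 fell, among them GZMB and CTSW, proteases of killer lymphocytes, with the direction of 2 fixed by the filter. Of 10 B cell and plasma cell markers, 3 were tested; JCHAIN did not pass (limma adjusted p = 0.0586), and the 2 that fell both had their direction fixed in this way. All 10 pan-leukocyte markers fell, among them LAPTM5 and CD52, with the direction of 5 fixed by the filter and a summed level of 66.7, 36.5 and 44.7 FPKM in SP, against 342, 755 and 453 FPKM in MP. Of 11 tested myeloid markers 9 fell, among them FCER1G and C1QA, with 4 directions fixed. Of 4 tested mast cell markers 3 fell, with 2 directions fixed. Of 10 tested stromal fibroblast markers 9 fell, among them DCN and COL1A2, with 2 directions fixed. Which of these cells the GIMAP transcripts of MP came from was not tested.

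Among the MP libraries, the sum of the 7 rows other than GIMAP8 was highest in replicate 2 (5.94 FPKM), as were the summed T cell markers (71.4 FPKM), pan-leukocyte markers (755 FPKM), mast cell markers (144 FPKM) and epithelial markers (3982 FPKM). The summed NK cell, myeloid and B cell markers were highest in MP replicate 3, at 257, 1232 and 169 FPKM, and the stromal fibroblast and pericyte markers in MP replicate 1. The summed endothelial markers were also highest in MP replicate 3, at 1578 FPKM against 523 FPKM in replicate 2 and 300.0 FPKM in replicate 1. GIMAP4, GIMAP6 and GIMAP7-2 followed this last order, which the summed NK cell and myeloid markers also had. GIMAP8 ran in the opposite order, as did the summed stromal fibroblast markers. GIMAP5, GIMAP7, GIMAP7-3 and GIMAP7-4 followed neither. With 3 libraries these orders are a description.

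Markers of lymphatic vessels, another endothelial type, were mostly low. Of 7 listed, 2 were tested and neither passed. LYVE1 had 82.1, 4.25 and 34.2 FPKM in SP, against 6.24, 1.68 and 15.4 FPKM in MP, and PDPN had 0.230, 1.97 and 6.64 FPKM in SP, against 20.0, 10.3 and 3.45 FPKM in MP. Both overlapped between the populations. Of the 7 tested markers of pericytes and smooth muscle, 4 fell, ACTA2 and CNN1 among them, and none of 7 epithelial markers passed, with CLDN4 and EPCAM overlapping.

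The chromosome around the family was mixed in direction, as were the tested genes at large. Of 71 other rows within 500 kb of the cluster 20 were tested. Of these, 3 rose, 7 fell and 10 did not pass, with a median log2 fold change of −0.39. Over all 12127 tested genes 20.5% were called higher and 18.7% lower in SP. Inside the cluster lay 10 other rows, all without a gene name beyond a LOC number; none was tested and 4 were listed at 0 in every library. On the side of GIMAP5, TMEM176A and TMEM176B, membrane proteins of myeloid cells, were the nearest tested genes. TMEM176A had 1.61, 2.82 and 4.95 FPKM in SP, against 44.8, 24.4 and 38.4 FPKM in MP (log2 fold change −3.20 ± 0.37 SE, limma adjusted p = 0.00181). TMEM176B fell by 2.44 on the log2 scale. NOS3, the endothelial nitric oxide synthase, rose: it had 26.3, 30.0 and 28.6 FPKM in SP, against 2.53, 4.96 and 12.7 FPKM in MP (log2 fold change 2.15 ± 0.46 SE, limma adjusted p = 0.0107), although its listed locus is shared with ABCB8 and ATG9B. RARRES2 (the chemokine-like protein chemerin), CDK5 and SMARCD3 fell by 1.35, 1.21 and 1.92 on the log2 scale.

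**Figure D3:**
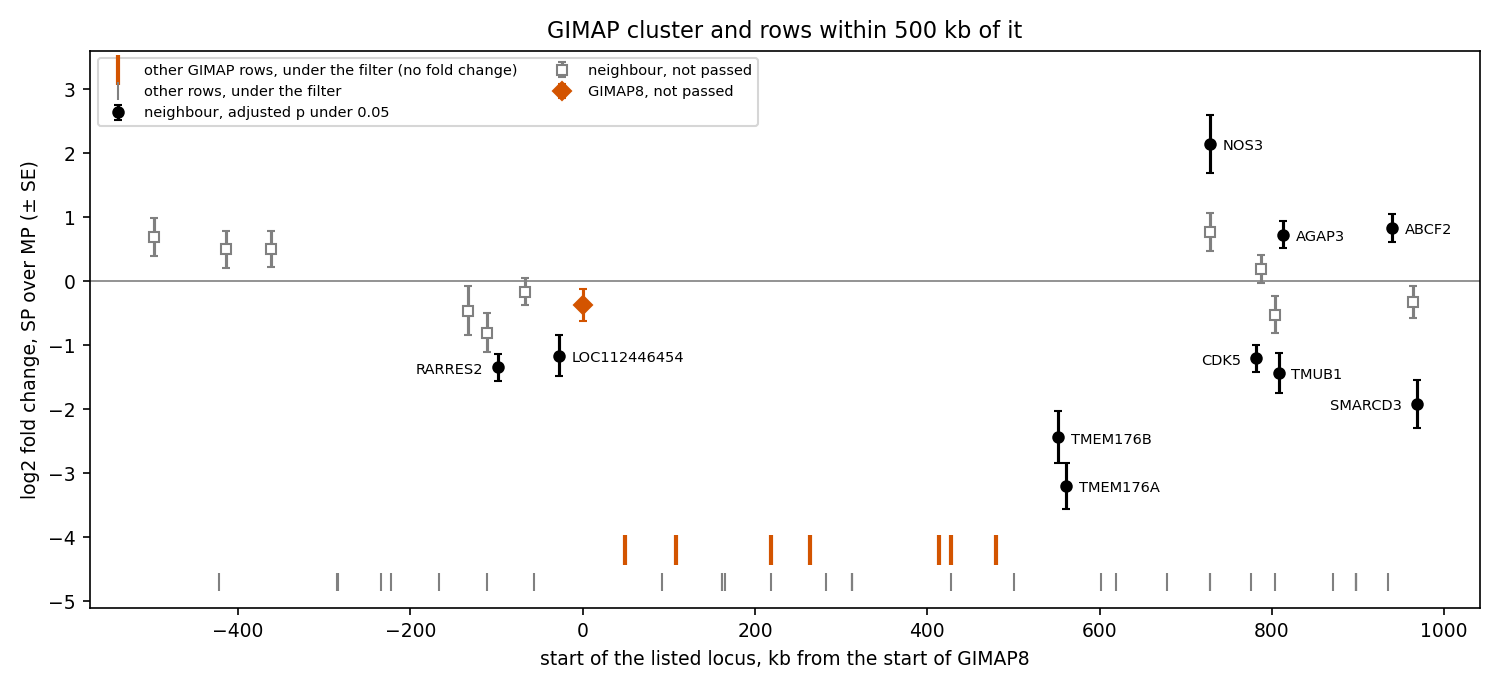
Log2 fold change of SP over MP (± SE, limma) against the start of each listed locus, in kb from the start of GIMAP8; ticks at the bottom mark rows under the filter, which have no fold change (tRNA rows are not drawn). GIMAP8 lies near 0 at −0.37, TMEM176A lies lowest at −3.20 and NOS3 highest at 2.15.

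GIMAPs have been reported to bind BCL2 family members, which set the threshold of cell death, in mouse T cells. Of 12 such genes, all tested, 2 rose, 2 fell and 8 did not pass (median log2 fold change −0.27). The shares over all tested genes were 20.5% higher and 18.7% lower in SP. PMAIP1 (NOXA), which promotes cell death, had 1187, 844 and 225 FPKM in SP, against 72.9, 131 and 128 FPKM in MP, and rose. MCL1, which opposes it, had 357, 205 and 191 FPKM in SP, against 167, 135 and 192 FPKM in MP, and did not pass. Of 5 tested ATG8 family genes, the ubiquitin-like proteins of autophagosomes to which GABARAPL2 belongs, GABARAPL1 rose (1.16), GABARAP fell (−1.12) and 3 did not pass. The sixth, MAP1LC3C, was too low to be tested and is named after its values were seen.

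Guanylate-binding proteins, another GTPase family of immunity, are induced by interferon; of 4 rows 2 were tested. GBP5 rose, with 195, 319 and 41.2 FPKM in SP, against 9.02, 43.7 and 10.1 FPKM in MP, where SP replicate 3 lay below MP replicate 2, while GBP4 did not pass (limma adjusted p = 0.0797). MX1, a dynamin-like antiviral protein, had 312, 346 and 113 FPKM in SP, against 25.8, 73.9 and 59.9 FPKM in MP, and rose (2.22). Of the 6 tested genes of its list 2 rose, 1 fell and 3, among them DNM2, did not pass. No test of the difference between these families and the GIMAPs was made.

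The tested genes whose pattern over the 6 libraries was most like that of GIMAP8 were GINS1, a DNA replication factor, COG5, a Golgi tethering subunit, and YME1L1, a mitochondrial protease. The root mean square difference of their centred log2(FPKM + 1) values from those of GIMAP8 was 0.0298, 0.0613 and 0.0648. None of them was on a marker list, and none passed the test (limma adjusted p = 0.291, 0.220 and 0.164).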

How the data were processed

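Per the submitters' processing notes, the reads went through cutadapt 2.5 and HISAT2 2.1.0 with the build ARS-UCD1.2. Libraries were stranded and poly(A)-based, per the labels' protocols. No source used here names the program behind the values, the annotation or the strand setting. The authors deposited FPKM, 1 table a library, and no counts; no scaling across libraries is stated. The values summed to 647501 to 870311 in SP and 805915 to 963629 in MP. The columns of MP alone are marked "micro"; no source explains the mark, which cannot be told apart from the population. A row with no gene name was left out; it made up 0.185% to 0.347% in SP and 0.743% to 1.91% in MP. COX1 and COX3, which every cell uses, are listed at 0 in all MP libraries, so a 0 need not mean absence.

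Log2(FPKM + 1) values of 12127 genes reaching 1 FPKM in 3 or more of 6 libraries were tested two-sided with limma 3.58.1 (R 4.3.3, eBayes with trend). P-values were adjusted by Benjamini-Hochberg over all of these genes, with 0.05 as the threshold. Members, lists and alternatives were chosen with earlier results of these data known. Named genes were all members, the 2 highest of each list by mean FPKM (4 for endothelial and T cell markers), up to 6 called neighbours by smallest p and the 3 genes most like a tested member. The fit and the depth estimate were tested on simulated data. The chromosome was read from gene symbols: of 959 on the members' sequence, 93.2% lie on chromosome 4 in the RefSeq table of ARS-UCD2.0. Alternatives covered pseudocounts, filters, scaling, left-out libraries and a block for the replicate number.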

Additional observations from a re-analysis of the deposited data

How the results depend on the processing

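GIMAP8 stayed below 0 and did not pass under any of 15 alternatives, with log2 fold changes from −0.48 to −0.16 and limma adjusted p from 0.184 to 0.603; at a mean of at least 5 FPKM no member is left to test. Of the scalings run, the one that moved the median of all genes most, by 0.19, was rescaling to a sum of 1e+06, which put GIMAP8 at −0.21. With the replicate number as a block GIMAP8 had an adjusted p of 0.263 and 4793 genes were called, against 4759; deviations of same-numbered libraries correlated at 0.105, 0.533 and −0.0854, and column names give the SP and MP libraries of a replicate the same stroma number, but no label says what it marks, so the numbers were not taken to pair libraries, and not every library correlated best with its own number. Left-out libraries gave 2617 to 4938 called genes, with 2617, 3170 and 2964 without SP replicate 1, MP replicate 1 and MP replicate 2.

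No GIMAP row was called lower in SP as reported, but only GIMAP8 was tested there. With no filter on low values 3 were called lower, and 3 also with a pseudocount of 0.1 (chosen after seeing the data). In the fit with no filter, further alternatives chosen after seeing the data called 0 to 3 rows with a library left out and 1 with the replicate block. Over these 12 alternatives GIMAP6 was called in 8 (adjusted p from 0.0195 to 0.119), GIMAP7 in 6 (0.0348 to 0.0922), GIMAP4 in 5 (0.0249 to 0.151) and GIMAP7-2 in 1 (0.0210 to 0.350, without MP replicate 1). Why calls were lost in some of these fits was not tested. The summed GIMAP level in SP was 0.401 of that in MP, and 0.358 to 0.470 under the alternatives run. Fragment numbers of single digits limit what can be said of the members other than GIMAP8 in SP.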
